A study of Mus musculus with 16 samples.

Results

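The control cells of a starvation time course were followed here on their own, over 8 of the 16 arrays of the series. All control arrays were taken by their labels: 1 array each at 1 h, 2 h and 3 h, 4 arrays at 5 h and 1 array at 16 h, each from cells given a medium that held amino acids. The cells are N25/2, an immortalized embryonic mouse hypothalamic line, and the other 8 arrays hold the same times in a medium without amino acids. Gene expression was measured on Affymetrix whole-transcript arrays, and values are log2 intensities. The labels do not say whether the treatment medium held serum, no array of cells before the medium change was analysed, and the labels do not say whether the 4 arrays at 5 h came from separate cultures. A p-value here therefore measures only the spread between these arrays, which may be technical. In the 5 h comparison the 1 h, 2 h and 3 h arrays were taken as 1 group. Any trend from 1 h to 3 h thus counted as spread, which can widen the SE and raise the p-value of a gene that declined early.

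A change of medium exposes cells to fresh nutrients and, where serum is present, to growth factors. As background, growth factor receptors signal through the kinase ERK, and ERK and calcium signals switch on immediate early genes such as Egr1 and Fos without new protein synthesis. ERK also switches on its own inhibitors, the Dusp phosphatases and the Sprouty proteins. Cells match sterol synthesis to supply through the transcription factor SREBP2 and its regulator Insig1, and they match amino acid supply through the transcription factor ATF4, which drives amino acid synthesis, transport and tRNA charging genes. Dividing cells raise a set of G2 and mitosis genes together.

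The array labelled 5 h, replicate 4, stood apart. Pearson correlations across genes, which are not independent replicates, ran from 0.9955 to 0.9979 among 5 h arrays 1 to 3 and from 0.982 to 0.9871 between array 4 and each of them. Array 4 correlated at 0.988 with the 3 h array and at 0.9934 with the amino acid-deprived 5 h array of the same number. With the 16 h control array it correlated at 0.9879, whereas 5 h arrays 1 to 3 did so at 0.9922 to 0.9932. Array 4 lay more than 0.5 log2 from the median of the 5 h arrays for 2308 genes, against 4 to 70 genes for the other three. The labels name no batch, so the counts of list members whose arrays did not overlap are given with and without it, and the main single genes are given on every array.

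Several markers of neural progenitors and of mesenchymal cells were high, and 4 of 5 neuronal markers were below the median gene. Sox2 (mean 10.85 over the control arrays), Nes (10.59) and Vim (13.74), all progenitor markers, were in the top decile of genes. On the same list Notch1 was at 8.35 and Pax6 at 5.97. The neuronal genes Tubb3, Rbfox3, Snap25 and Syt1 stood at 5.97, 6.44, 6.39 and 6.43, below the median gene level of 7.47, whereas Map2, on the same list, stood at 9.55. Of the hypothalamic peptide genes, Pomc, Npy and Trh were at 6.50, 7.26 and 6.85 and Gnrh1 at 7.70, just above the median. Of the fibroblast and pericyte markers, Acta2 (13.45), Col1a1 (12.27) and Pdgfrb (11.72) were also high, whereas Col1a2 was at 8.11. Of the astrocyte markers, Slc1a3 was high at 11.84, whereas Gfap, Aqp4 and Aldh1l1 were at 6.33, 6.26 and 6.49. The mean of the 4 fibroblast and pericyte markers was 11.25 to 11.38 in the early arrays and 11.31 to 11.68 at 5 h, and the part of this in the results was not tested.

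At 5 h against the 1 to 3 h arrays, 3 genes fell and 0 rose among 19938 tested (limma, adjusted p under 0.05), which is 0.015% of genes. At an unadjusted p under 0.05 there were 1722. Slc30a1, which exports zinc from the cytosol, read 9.28, 9.997 and 9.32 at 1, 2 and 3 h, then 8.11, 7.87, 7.97 and 7.57 at 5 h and 7.79 at 16 h. The 5 h arrays lay wholly below the early arrays, a 3.15-fold fall (log2 difference -1.65 ± 0.19 SE, n = 3 and 4, limma adjusted p = 0.0473). Mmp10, a secreted matrix metalloproteinase, read 10.05, 10.19 and 9.85 early and 8.88, 8.80, 8.95 and 8.65 at 5 h, a log2 difference of -1.21 ± 0.11 SE (limma adjusted p = 0.0254). Trmt61a, a subunit of the enzyme that methylates adenine in tRNA, read 8.33, 8.44 and 8.37 early and 7.64, 7.48, 7.501 and 7.28 at 5 h (-0.91 ± 0.10 SE, limma adjusted p = 0.0473). All 3 genes were still low in the 16 h array, at 7.79, 8.60 and 7.47. Each kept its direction under all 18 alternative settings, but the call was lost under 10 of them for Slc30a1, 8 for Mmp10 and 12 for Trmt61a. The metallothionein genes Mt1 and Mt2, which bind zinc and are induced by it, did not share the pattern of Slc30a1: the log2 differences were -0.05 ± 0.13 SE for Mt1 and -0.01 ± 0.12 SE for Mt2 (limma adjusted p = 0.999 for each), and their sign turned under several settings.

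**Figure D1:**
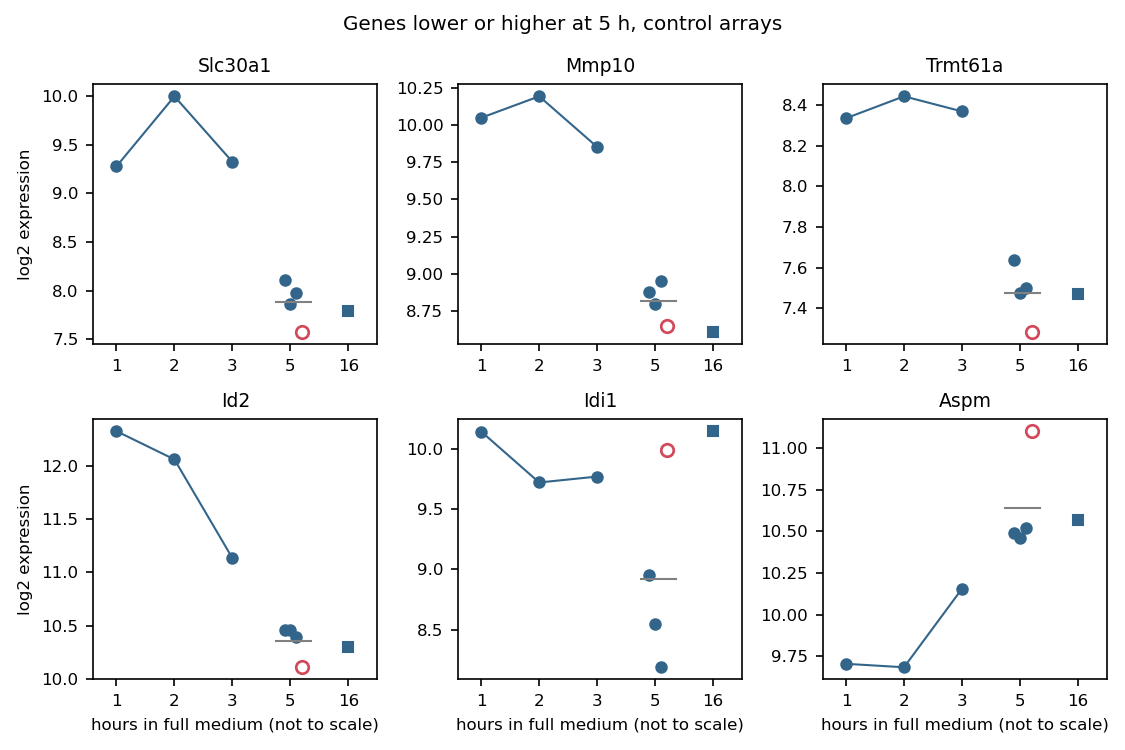
Log2 expression of 6 genes on the control arrays against hours in full medium, with the hour axis not to scale. Joined points are the single 1, 2 and 3 h arrays, filled points at 5 h are arrays 1 to 3, the open red point is array 4, the grey bar is the mean of all 4, the square is the 16 h array, and each panel has its own axis that does not start at 0. Slc30a1, Mmp10, Trmt61a and Id2 lie lower on every 5 h array than on any early array, whereas array 4 reads 9.99 for Idi1, inside the early range.

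Without array 4 the same test called 162 genes, 38 higher and 124 lower at 5 h (0.813% of genes), and the 3 genes above were among them. Over the 7 fits that each left out a single early or 5 h array the count ran from 0 to 162, and it was 17 without the 3 h array and 0 without the 1 h array, the 2 h array, 5 h array 2 or 5 h array 3. All 162 genes had the same direction when array 4 was kept, and in 131 of them array 4 lay beyond the early arrays on the same side. With the arrays of equal time and number in the other medium as a replicate block, 113 genes were called, 35 higher and 78 lower. The pairing behind that block was assumed. Genes named from the fit without array 4 were chosen after their values were seen, and their adjusted p in the fit of all control arrays exceeded 0.05 except for Slc30a1, Mmp10 and Trmt61a.

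Among the genes called lower in that fit, Id2, an inhibitor of basic helix-loop-helix transcription factors, read 12.32, 12.06 and 11.13 early and 10.46, 10.46, 10.40 and 10.11 at 5 h. Without array 4 the log2 difference was -1.40 ± 0.24 SE (limma adjusted p = 0.0322), and with it -1.48 (adjusted p = 0.129). Hmox1, the haem-degrading enzyme and a target of the stress factor NRF2, read 11.05, 11.60 and 11.52 early and 10.76, 10.25, 10.05 and 8.90 at 5 h, so that array 4 was the lowest. The difference was -1.04 ± 0.19 SE without array 4 (limma adjusted p = 0.0356) and -1.40 with it. Hk2, a hexokinase, and Vegfa, a vascular growth factor, were lower by -1.04 ± 0.17 SE and -0.64 ± 0.10 SE without array 4 (limma adjusted p = 0.0322 and 0.0310). Arrdc3, an arrestin-domain protein, read 10.44, 9.65 and 9.52 early and 8.84, 8.61, 8.54 and 9.20 at 5 h, a difference of -1.21 ± 0.20 SE without array 4 (limma adjusted p = 0.0322). The 12 largest falls of that fit were Slc30a1, Mmp10, Id2, Arrdc3, the genes Idi1, Msmo1, Cyp51, Fgf7 and Ciart described below, and Nr1h4, the bile acid receptor, Rai14 and Blnk. Nr1h4, Rai14 and Blnk were lower by -1.37, -1.09 and -1.05. Among 20 NRF2 targets, 5 were lower on every 5 h array than on any early array and 0 were higher, against 5.1% and 4.78% of all genes. The counts were the same without array 4, against 9.6% and 9.39% of all genes. The median log2 difference on all arrays was -0.18 against 0.02 over all genes.

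The rises were smaller. Mex3a, an RNA-binding protein, read 7.63, 7.61 and 7.74 early and 8.43, 8.45, 8.31 and 8.74 at 5 h, a log2 difference of 0.74 ± 0.09 SE without array 4 (limma adjusted p = 0.0191). Srf, the serum response factor that drives immediate early and cytoskeletal genes, read 9.65, 9.53 and 10.01 early, then 10.43, 10.39 and 10.45 on 5 h arrays 1 to 3 and 9.84 on array 4. It was higher by 0.70 ± 0.12 SE without array 4 (limma adjusted p = 0.0322), but array 4 lay inside the early range. The other rises among the 12 largest, Arhgap23, Ldb3, Efna4, Tcf7l1, Prr12, Ccar1, Atxn7l1, Pik3c2b, Uty and the mitotic gene Aspm, were between 0.60 and 0.71. Of 28 SRF and YAP targets, 1 was called higher without array 4 (Srf itself, on that list too), against 0.191% of all genes. On all 5 h arrays 3 lay above the early arrays (Fhl3, Tgfb1i1 and Itga5) and 0 below, against 4.78% and 5.1% of all genes, and without array 4 it was 8 above and 0 below, against 9.39% and 9.6%.

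Immediate early genes were highest at 1 h and declined to 3 h. These are single arrays, so the decline has no test, and it is read against the 0.16% of all genes that were lower at 3 h than at 1 h by at least 2-fold (32 genes) and the 0.105% that were higher (21 genes). Of 41 measured immediate early genes, 34 were lower at 3 h than at 1 h, against 11328 of all 19938 genes. The median log2 difference was -0.47 against -0.04 over all genes, and 6 passed 2-fold: Egr1, Egr2, Nr4a1, Errfi1, Id2 and Id3. Egr1, a zinc finger transcription factor, read 10.52 at 1 h, 8.86 at 2 h and 7.39 at 3 h, an 8.79-fold decline. At 5 h it read 7.61, 7.70, 7.69 and, on array 4, 9.11, and at 16 h 8.54. Nr4a1, an orphan nuclear receptor, read 9.36, 8.97 and 7.72, then 7.82, 7.78, 7.83 and 7.56 at 5 h. Fos, a subunit of the AP-1 factor, was low throughout, at 6.93, 6.53 and 6.29 and then 6.41 to 6.71, so its 1 h value was only 0.64 above its 3 h value on the log2 scale.

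Not every member peaked at 1 h. Maff, a small Maf transcription factor, read 8.36, 9.01 and 7.79 and then 7.64, 7.25, 7.35 and 6.62, and Fosl1, another AP-1 subunit, read 11.07, 11.27 and 10.14 and then 10.09, 10.05, 9.89 and 9.12. Myc, a growth-promoting transcription factor, was highest at 1 h, and read 11.77, 10.89 and 10.85 and then 10.52, 10.48, 10.23 and 9.65. On all 3 genes array 4 was the lowest 5 h array. In the 5 h comparison 9 of 41 immediate early genes lay below the early arrays on all 5 h arrays and 0 above (against 5.1% and 4.78% of all genes). Without array 4 it was 11 below and 3 above, against 9.6% and 9.39% of all genes. With all arrays 0 passed the test, in which a decline within the early arrays counts as spread.

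The promoters of this group were searched for the letters of the cAMP response element, TGACGTCA, and for the CArG box bound by the serum response factor, on both strands of RefSeq windows (build GRCm38.p6) of 300 bases. The first was in 3 of 33 genes with a window (9.09%, against 2.72% of 15563 measured genes) and the second in 3 of 33 (9.09%, against 1.63%). A match is a description and not a bound site. Maff, which peaked at 2 h, and Srf, which was higher at 5 h without array 4, are shown with the matched letters in capitals, from chr15:79347479-79347510 (plus strand) and chr17:46556203-46556256 (minus strand).
Maff: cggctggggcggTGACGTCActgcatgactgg
Srf: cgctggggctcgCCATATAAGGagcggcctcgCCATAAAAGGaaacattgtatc

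**Figure D2:**
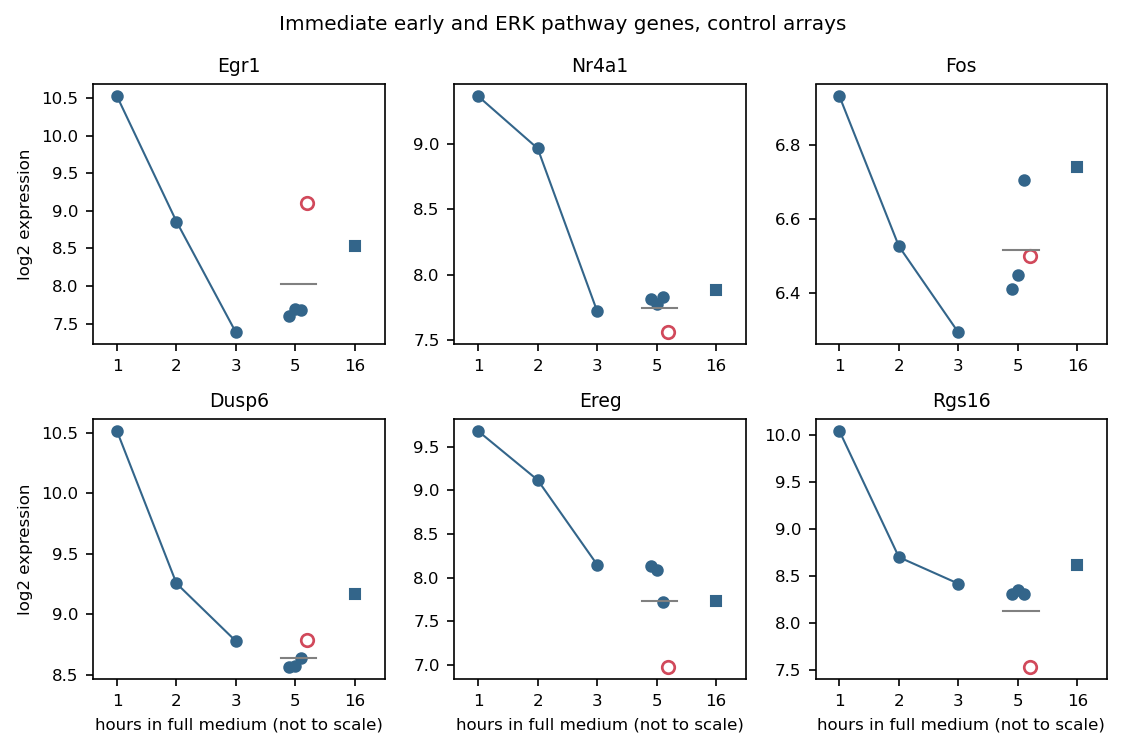
Log2 expression of 6 immediate early and ERK pathway genes on the control arrays against hours in full medium, with the hour axis not to scale and symbols and bars as in the plot of Slc30a1 and Id2. Egr1, Dusp6, Ereg and Rgs16 are highest at 1 h, Egr1 reads 9.11 on array 4, and Fos stays under 7 on all arrays.

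Feedback genes of the ERK pathway followed the same early course. Of 25 measured, 21 were lower at 3 h than at 1 h, against 11328 of all 19938 genes. Those lower by at least 2-fold were 3, Dusp4, Dusp6 and Spry1, against 0.16% of all genes. Dusp6, a phosphatase that inactivates ERK, read 10.51, 9.25 and 8.78, then 8.56, 8.58, 8.64 and 8.79 at 5 h and 9.17 at 16 h. Dusp4, a related phosphatase, read 10.16, 9.39 and 8.65 and then 8.46, 8.48, 8.23 and 7.83. The ETS factor Etv5, an ERK target, peaked at 2 h (8.31, 8.71 and 7.82) and read 7.42, 7.32, 7.28 and 7.002 at 5 h, a log2 difference of -0.94 ± 0.18 SE without array 4 (limma adjusted p = 0.0449). Over the list, 6 of 25 lay below the early arrays on all 5 h arrays and 0 above (against 5.1% and 4.78% of all genes), and 9 below and 3 above without array 4 (against 9.6% and 9.39%). The median difference was -0.28, or -0.25 without array 4.

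Growth factor ligands differed among themselves. Of 24 measured, 19 were lower at 3 h than at 1 h, against 11328 of all 19938 genes. Of these, 1 was lower by at least 2-fold (Ereg), against 0.16% of all genes. The median 5 h difference was -0.16, or -0.05 without array 4, where 13 were lower and 11 higher. None passed the test with all arrays. Without array 4 Fgf7 and Vegfa did, both lower, against 0.622% of all genes. Ereg, which encodes the EGF receptor ligand epiregulin, read 9.68, 9.12 and 8.15, then 8.13, 8.08, 7.72 and 6.97. Rgs16, an inhibitor of G protein signals and no ligand, read 10.04, 8.70 and 8.41, then 8.30, 8.34, 8.30 and 7.52, and returned to 8.62 at 16 h. Fgf7, a fibroblast-derived growth factor, read 10.93, 10.96 and 10.29, then 9.94, 9.49, 9.31 and 8.92, and 11.20 at 16 h, above every earlier array. Its 5 h difference was -1.15 ± 0.19 SE without array 4 (limma adjusted p = 0.0322) and -1.31 with it (adjusted p = 0.135). Of 24 ligands, 7 lay below the early arrays on all 5 h arrays (Ereg, Btc, Fgf2, Fgf7, Vegfa, Lif and Il6) and 1 above, Tgfb3, against 5.1% and 4.78% of all genes. The counts were also 7 and 1 without array 4, against 9.6% and 9.39%.

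The microRNA gene Mir149 was also among the 6 steepest declines from 1 h to 3 h among genes above the median level, at 8.76, 8.16 and 7.19. The largest increases among such genes were Medag, which promotes fat cell formation, at 8.76, 9.58 and 10.51, and Aspn, which encodes the matrix protein asporin, at 6.98, 7.66 and 8.18. Omd, which encodes the matrix protein osteomodulin, read 7.66, 7.82 and 8.79, and Gm10033, 2610008E11Rik and Zfp763 were higher at 3 h by 1.14, 1.14 and 1.10 log2. At 5 h Medag read 9.96, 9.74, 9.56 and 10.82, so that it had come down on arrays 1 to 3 but not on array 4. Aspn stayed high, at 8.21, 8.65, 8.47 and 10.08, and read 9.06 at 16 h.

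Sterol synthesis genes declined from 1 h to 5 h and were high again at 16 h, with array 4 an exception. The mean of 20 genes was 10.40, 9.95 and 9.90 early, 9.57, 9.45 and 9.37 on 5 h arrays 1 to 3, 10.08 on array 4 and 10.21 at 16 h. All 20 were lower at 5 h without array 4 and 19 with it, and the median log2 differences were -0.54 and -0.38, against 0.03 and 0.02 over all genes. Those below the early arrays on all 5 h arrays numbered 6 (Sqle, Lss, Cyp51, Hsd17b7, Sc5d and Dhcr7) and 16 without array 4, against 5.1% and 9.6% of all genes. None of the 20 passed the test with all arrays. Without array 4 it was 3, Idi1, Cyp51 and Msmo1, all lower, against 0.622% of all genes.

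Idi1, which isomerizes isopentenyl diphosphate, read 10.15, 9.72 and 9.77, then 8.96, 8.55 and 8.19 on 5 h arrays 1 to 3, 9.99 on array 4 and 10.15 at 16 h. Its difference was -1.32 ± 0.18 SE without array 4 (limma adjusted p = 0.0217) and -0.96 ± 0.35 SE with it (adjusted p = 0.44). Cyp51, the sterol demethylase, and Msmo1, a sterol oxidase, were lower by -1.20 ± 0.15 SE and -1.22 ± 0.20 SE without array 4 (limma adjusted p = 0.0197 and 0.0322). Insig1, whose protein holds the SREBP complex in the endoplasmic reticulum and whose gene is itself an SREBP target, read 11.14, 9.92 and 9.43, then 8.93, 8.59, 8.30 and 10.38, and 10.52 at 16 h. Hmgcs1, the HMG-CoA synthase, read 10.54, 9.28 and 9.53, then 9.09, 9.10, 9.00 and 10.92, and 10.70 at 16 h. On Hmgcs1 and Insig1 array 4 was nearer to the 16 h array than to the other 5 h arrays.

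All 16 sterol genes with a RefSeq window held the letters CCAAT on either strand (100%, against 41.7% of measured genes). The sterol element TCACNCCAC was in 1 of the 16 (6.25%, against 1.39%), Hmgcs1. The windows of Hmgcs1 and Idi1 are shown as examples of the list, with CCAAT (or ATTGG) and the sterol element in capitals, from chr13:119690102-119690322 and chr13:8885549-8885605, both on the plus strand and both ending before the gene's start.
Hmgcs1: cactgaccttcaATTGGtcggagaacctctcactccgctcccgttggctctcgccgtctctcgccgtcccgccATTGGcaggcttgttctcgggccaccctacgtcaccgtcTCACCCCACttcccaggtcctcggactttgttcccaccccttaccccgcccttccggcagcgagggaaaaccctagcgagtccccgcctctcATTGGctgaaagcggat
Idi1: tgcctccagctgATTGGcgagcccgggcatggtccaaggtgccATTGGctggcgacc

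**Figure D3:**
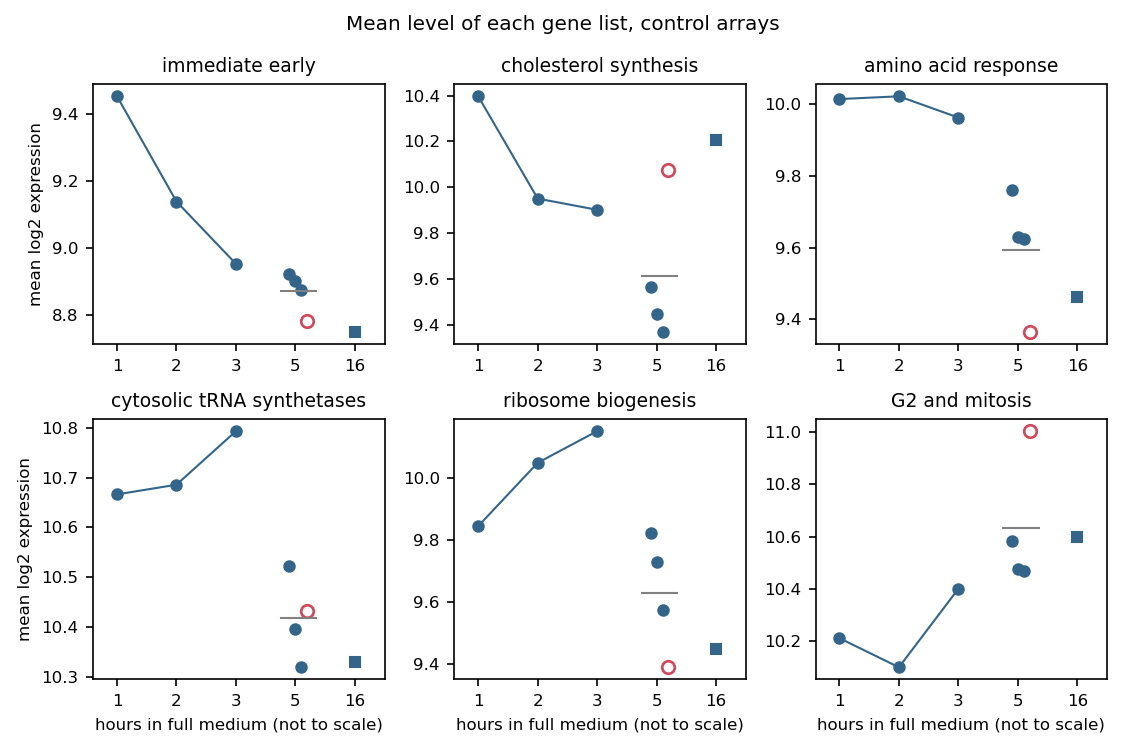
Mean log2 expression of 6 gene lists on the control arrays against hours in full medium, with the hour axis not to scale and symbols and bars as in the plots of single genes. Cholesterol synthesis reads 10.08 on array 4 and 10.21 at 16 h against 9.37 to 9.57 on 5 h arrays 1 to 3, and G2 and mitosis reads 11.00 on array 4.

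Genes of the amino acid response, the ATF4 pathway, were lower at 5 h than early in this medium, which held amino acids. Of 40 measured, 37 were lower at 5 h than early, 23 lay below the early arrays on all 5 h arrays and 0 above (against 5.1% and 4.78% of all genes), and the median log2 difference was -0.43 (-0.31 without array 4). Without array 4 it was 25 below and 2 above, against 9.6% and 9.39%. The list mean was flat to 3 h at 10.01, 10.02 and 9.96, then 9.76, 9.63, 9.62 and 9.36 at 5 h and 9.46 at 16 h. With all arrays 0 of 40 passed the test, and without array 4 it was 6 (Trib3, Chac1, Cebpb, Mthfd2, Gpt2 and Cth), all lower, against 0.622% of all genes.

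Cth, which makes cysteine from cystathionine, read 8.97, 8.88 and 8.84, then 8.31, 8.08, 7.94 and 7.53 at 5 h, a difference of -0.79 ± 0.10 SE without array 4 (limma adjusted p = 0.0197). Gpt2, the mitochondrial alanine transaminase, read 9.28, 9.29 and 9.36, then 8.80, 8.54, 8.42 and 8.51, and stayed at 8.53 at 16 h. Chac1, which degrades glutathione, read 10.53, 10.18 and 9.95, then 9.56, 9.42, 9.35 and 9.52, and Trib3, a pseudokinase that restrains ATF4, read 9.15, 8.83 and 8.74, then 8.18, 8.07, 8.30 and 7.87. Chac1 and Trib3 therefore declined from 1 h, whereas Cth and Gpt2 held their level to 3 h. Asns, the asparagine synthetase, read 12.20, 12.30 and 12.38, then 12.10, 11.88, 11.79 and 11.65, a difference of -0.44 ± 0.12 SE (limma adjusted p = 0.248). Slc7a11, the cystine transporter, read 8.89, 9.85 and 9.40, then 8.93, 8.78, 8.51 and 7.29, and 7.20 at 16 h.

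The cytosolic tRNA synthetases, which attach amino acids to tRNA, had the same direction. Of 18 measured, 17 were lower at 5 h than early with all arrays and 18 without array 4, and 9 lay below the early arrays on all 5 h arrays and 0 above (against 5.1% and 4.78% of all genes). Without array 4 it was 13 and 0, against 9.6% and 9.39%. Cars, Sars and Yars, which charge tRNA with cysteine, serine and tyrosine, were lower by -0.62 ± 0.09 SE, -0.55 ± 0.10 SE and -0.53 ± 0.09 SE without array 4 (limma adjusted p = 0.0241, 0.0338 and 0.0322). With array 4 the limma adjusted p was 0.164 for Cars, 0.21 for Sars and 0.191 for Yars. The letters of the amino acid response element, TGATGNAAT, were in 2 of 35 windows of the amino acid response list (Nupr1 and Fgf21, 5.71%, against 0.816% of measured genes) and in 2 of 11 windows of the synthetases (Gars and Iars, 18.2%).

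Ribosome biogenesis genes were higher at 3 h than at 1 h and low at 5 h. Of 43 measured, all but 1 were higher at 3 h than at 1 h, whereas 11328 of all 19938 genes were lower. The median log2 difference from 1 h to 3 h was 0.29, and 42 of the 43 were lower at 5 h than the early mean. The list mean read 9.85, 10.05 and 10.15, then 9.82, 9.73, 9.58 and 9.39, and 9.45 at 16 h. Those below the early arrays on all 5 h arrays numbered 21, and 0 lay above (against 5.1% and 4.78% of all genes), and without array 4 it was 23 and 0 (against 9.6% and 9.39%). Rrp1b and Wdr43, both nucleolar ribosome assembly factors, were lower by -0.82 ± 0.13 SE and -0.55 ± 0.09 SE without array 4 (limma adjusted p = 0.0310 and 0.0322). Rrp1b read 9.31, 9.81 and 9.62, then 8.88, 8.73, 8.68 and 8.55. The letters CACGTG, the E-box that MYC and other factors bind, were in 9 of 38 windows of this list (23.7%, against 9.52% of measured genes). Slc20a1, a phosphate transporter, read 11.46, 11.84 and 11.40, then 10.84, 10.80, 10.70 and 10.61, a difference of -0.79 ± 0.12 SE without array 4 (limma adjusted p = 0.0310).

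G2 and mitosis genes were higher at 5 h. All 42 measured members had a positive difference, with and without array 4, at a median of 0.37 and 0.25 log2, and 20 lay above the early arrays on all 5 h arrays and 0 below (against 4.78% and 5.1% of all genes), or 21 and 0 without array 4 (against 9.39% and 9.6%). The list mean read 10.21, 10.10 and 10.40, then 10.58, 10.48, 10.47 and, on array 4, 11.00, and 10.60 at 16 h. No member passed the test with all arrays or without array 4. Plk1, the polo-like mitotic kinase, read 11.56, 11.52 and 11.77, then 12.15, 12.01, 12.11 and 12.35, a difference of 0.54 ± 0.11 SE (limma adjusted p = 0.164, and 0.0517 without array 4). Cenpe, a kinetochore motor, read 10.13, 9.89 and 10.43, then 10.78, 10.79, 10.70 and 11.07. Aspm, a spindle pole protein that is not on the list, read 9.71, 9.68 and 10.16, then 10.49, 10.46, 10.52 and 11.10, and was called without array 4 (0.64 ± 0.12 SE, limma adjusted p = 0.0479).

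S phase genes differed less. Of 37 measured, 6 lay above the early arrays on all 5 h arrays (Mcm5, Pola2, Cdc45, E2f2, Tk1 and Clspn) and 0 below, against 4.78% and 5.1% of all genes. Without array 4 it was 6 above and 2 below, against 9.39% and 9.6%. The median difference was 0.17, or 0.10 without array 4. Ccne2, the G1/S cyclin E2, read 9.64, 10.02 and 10.30, then 10.18, 10.22, 9.89 and 9.73, with a difference of 0.02 ± 0.17 SE whose sign turned without the 1 h array, 5 h array 1 or 5 h array 2. Pola1, a DNA polymerase subunit, was the S phase gene called lower without array 4 (-0.49 ± 0.08 SE, limma adjusted p = 0.0322), at 9.29, 9.22 and 9.25 early, 8.73, 8.84 and 8.72 on 5 h arrays 1 to 3 and 9.53 on array 4.

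The letters TTTGAA, the CHR element of mitotic promoters, were in 25 of 35 windows of the G2 and mitosis list (71.4%, against 17.3% of measured genes) and in 4 of 31 windows of the S phase list (12.9%). Of the 35, 22 held both TTTGAA and CCAAT (62.9%, against 7.94%). Cdc20, Cdk1 and Top2a are shown because they carry both upstream of the start, with TTTGAA (or TTCAAA) and CCAAT (or ATTGG) in capitals, from chr4:118437344-118437408, chr10:69352913-69353132 and chr11:99024195-99024428, all on the minus strand.
Cdc20: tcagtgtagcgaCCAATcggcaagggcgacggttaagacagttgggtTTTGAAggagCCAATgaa
Cdk1: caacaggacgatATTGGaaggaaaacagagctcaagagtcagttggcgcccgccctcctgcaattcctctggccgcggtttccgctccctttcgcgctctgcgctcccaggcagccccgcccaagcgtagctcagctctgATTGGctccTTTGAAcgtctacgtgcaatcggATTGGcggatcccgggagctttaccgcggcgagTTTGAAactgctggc
Top2a: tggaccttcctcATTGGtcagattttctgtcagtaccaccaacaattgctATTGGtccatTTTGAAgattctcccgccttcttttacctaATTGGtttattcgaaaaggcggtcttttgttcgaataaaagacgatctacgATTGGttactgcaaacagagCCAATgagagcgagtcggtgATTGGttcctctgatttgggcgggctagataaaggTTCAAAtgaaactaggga
The differences of these 3 genes at 5 h were 0.45, 0.19 and 0.34 log2, with limma adjusted p of 0.296, 0.842 and 0.717. Cdk1 was 11.51 to 11.73 early and 11.70, 11.74, 11.68 and 12.14 at 5 h, so that array 4 stood well above the early range and array 2 barely above it.

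Clock genes had no common direction. Of 19, 3 lay below the early arrays on all 5 h arrays (Cry1, Bhlhe40 and Ciart) and 0 above, against 5.1% and 4.78% of all genes. Without array 4 it was 5 below and 1 above, against 9.6% and 9.39%. Ciart, a repressor of the clock activator BMAL1, read 9.53, 9.22 and 9.05, then 8.42, 8.04, 8.01 and 7.53, and 8.54 at 16 h, with a difference of -1.10 ± 0.14 SE without array 4 (limma adjusted p = 0.0197) and -1.26 ± 0.20 SE with it (adjusted p = 0.123). Per1 and Per2, the period repressors, read 8.78 and 8.67 at 1 h, 8.71 to 8.96 and 8.07 to 8.39 at 5 h, and 9.02 and 8.99 at 16 h. Nr1d1, the repressor REV-ERBα, read 11.28, 10.94 and 10.54, then 10.63, 10.69, 10.75 and 10.14, and Dbp, a clock output factor, read 9.83, 9.36 and 9.08, then 9.30, 9.12, 9.10 and 9.65 and 10.05 at 16 h. None of these 4 passed the test. The E-box CACGTG was in 5 of 16 windows of the list (31.2%, against 9.52%) and the D-box, TTATGTAA or TTACGTAA, in 1 (6.25%, against 1.17%). Ciart is shown for its 3 E-boxes, in capitals, from chr3:95882255-95882356 on the minus strand.
Ciart: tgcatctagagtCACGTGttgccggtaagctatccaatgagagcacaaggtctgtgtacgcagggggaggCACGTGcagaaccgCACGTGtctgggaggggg

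The single 16 h array differed from the 5 h arrays in few genes. With 1 array at 16 h no test was made, and a gene was counted where it lay at least 2-fold from the 5 h mean and outside the range of the 4 arrays: 14 genes were higher (0.0702%) and 26 lower (0.13%). The total was 40, and 75 without array 4. Dcn, the matrix proteoglycan decorin, read 7.93, 7.81, 7.78 and 7.61 at 5 h and 9.72 at 16 h, 3.83-fold higher and above its early arrays too. Fgf7, Insig1, Msmo1 and Idi1 were higher at 16 h by 1.78, 1.48, 1.43 and 1.23 log2, and Chrnb1, Vcam1 and Aspa, which encode an acetylcholine receptor subunit, an adhesion molecule and an enzyme of N-acetylaspartate breakdown, by 1.11, 1.08 and 1.08. For Insig1 and Idi1 the 16 h array was close to array 4 at 5 h (10.38 and 9.99).

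The largest decline at 16 h among genes above the median level was that of Il1rn, the interleukin-1 receptor antagonist, which read 10.86, 10.78 and 10.48, then 10.11, 9.93, 9.94 and 8.88 at 5 h, and 7.43 at 16 h. It was lower than the 5 h mean by 4.89-fold. Plxdc2, a membrane receptor, read 8.84, 8.82, 8.90 and 9.47 at 5 h and 7.39 at 16 h. Arhgdib read 9.50, 9.28 and 9.19 on 5 h arrays 1 to 3 and 7.90 on array 4, and read 7.63 at 16 h. Foxq1, a forkhead factor, Srgap1, a GTPase-activating protein, and Ccn2, a matrix protein and YAP target, differed by -1.28, -1.22 and -1.21 log2. The small nucleolar RNA gene Snord14e and the transporter Slc7a11 differed by -1.18 and -1.18. On Arhgdib, Slc7a11 and Hmox1 (8.90 on array 4, 8.88 at 16 h) array 4 was nearer to the 16 h array than to the other 5 h arrays. On Dcn, Fgf7, Plxdc2 and Aspa it was instead the 5 h array farthest from the 16 h array. Such genes were picked, and across all genes array 4 correlated less with the 16 h array than 5 h arrays 1 to 3 did.

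**Figure D4:**
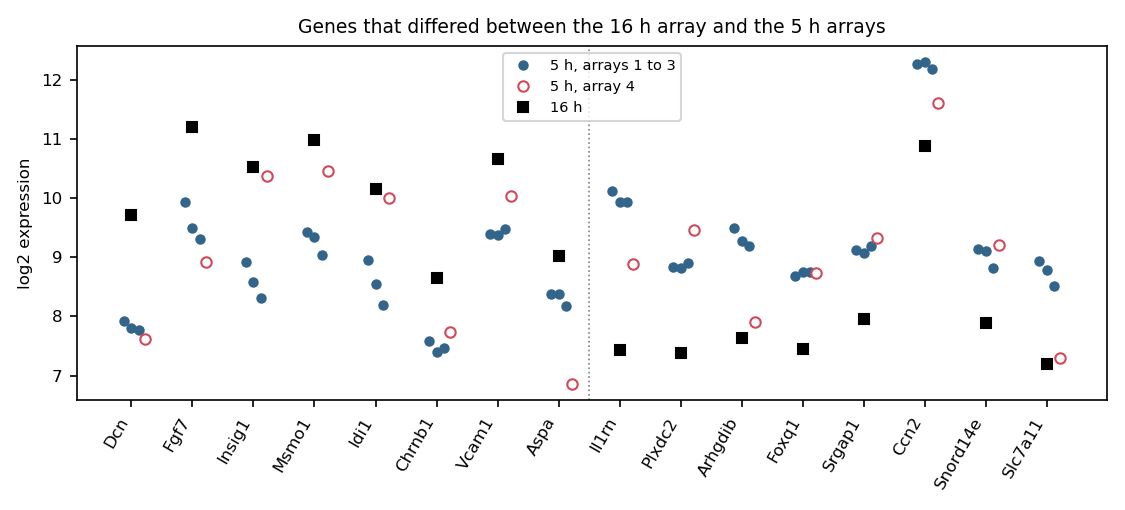
Log2 expression of the 8 genes above the median level that were most increased and the 8 that were most decreased in the 16 h control array, against the 5 h control arrays. Filled points are 5 h arrays 1 to 3, open red points are array 4, black squares are the 16 h array, and the dotted line parts increased genes (left) from decreased genes (right). Il1rn reads 7.43 at 16 h against 8.88 to 10.11 at 5 h, and Dcn reads 9.72 against 7.61 to 7.93.

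The 5 h minus early difference was then compared with the same difference in cells without amino acids. The interaction in limma over all 16 arrays called 26 genes (0.13%), 24 with a more negative (0.12%) and 2 with a more positive (0.01%) difference in full medium. With the replicate block it called 599 (196 more positive and 403 more negative), and without both arrays numbered 4 it called 102 (0.512%), the 26 included. Leaving out single control arrays gave 1 (without the 1 h or the 2 h array) to 44 (without 5 h array 4), with 3 without 5 h array 2, 9 without 5 h array 3 and 15 without the 3 h array.

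The genes with the most negative difference were Cth, Gpt2, Ciart, Trib3 and Mei4. Cth read 7.53 to 8.31 at 5 h in full medium, whereas deprived cells read 8.90, 9.39 and 9.84 early and 10.33, 10.21, 10.19 and 10.04 at 5 h, an interaction of -1.75 ± 0.27 SE (limma adjusted p = 0.0219). Gpt2 had an interaction of -1.59 ± 0.21 SE (limma adjusted p = 0.0179), with deprived cells at 9.38, 9.86 and 10.21 early and 10.61 to 10.73 at 5 h. For Ciart it was -1.53 ± 0.27 SE, for Trib3 -1.43 ± 0.25 SE, and for Mei4, a meiotic recombination gene, -1.31 ± 0.14 SE (limma adjusted p = 0.0441, 0.0442 and 0.0041). In the positive direction, Chst12, a chondroitin sulfotransferase, and Tgfb1i1, a focal adhesion protein, had interactions of 0.98 ± 0.13 SE and 0.90 ± 0.13 SE (limma adjusted p = 0.0199 and 0.0213). Chst12 read 10.37, 10.39 and 10.66 early and 10.57 to 10.71 at 5 h in full medium, and 9.31 to 9.62 at 5 h in deprived medium. Over 16 alternative settings the call was lost in 8 for Ciart and for Trib3, 6 for Cth, 4 for Tgfb1i1, 3 for Chst12, 2 for Gpt2 and 0 for Mei4.

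Of the 40 amino acid response genes, 4 were called in the interaction and 11 without both arrays numbered 4, against 0.13% and 0.512% of all genes. Their median 5 h minus early difference was -0.43 in full and 0.37 in deprived medium. The tRNA synthetases had medians of -0.31 and 0.24. Sterol genes had medians of -0.38 and -0.62, and G2 and mitosis genes 0.37 and 0.22. Without control array 4 the full-medium medians were -0.31 for amino acid response genes and -0.33 for the synthetases. For sterol genes and for G2 and mitosis genes they were -0.54 and 0.25, nearer to the deprived medians. In the interaction 0 of the sterol genes and 0 of the G2 and mitosis genes were called. With 0.13% of all genes called, lists this short would hold few calls in any case, so that 0 does not show a shared course. Id2 and Mmp10 were lower at 5 h in both media, with differences of -1.48 and -1.34 for Id2 and -1.21 and -1.003 for Mmp10, and interactions of -0.14 ± 0.47 SE and -0.21 ± 0.18 SE. Slc30a1 differed by -1.65 in full and -0.46 in deprived medium, an interaction of -1.20 ± 0.28 SE (limma adjusted p = 0.169). With the replicate block that interaction passed the threshold (limma adjusted p = 0.0007). Of the 162 genes called in full medium without array 4, 118 had the same sign in deprived medium.

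**Figure D5:**
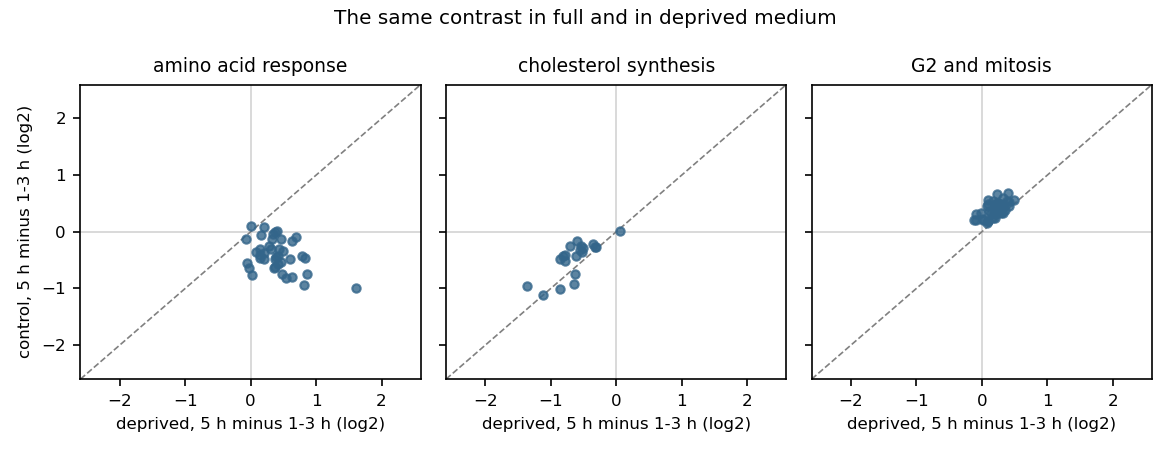
The 5 h minus early difference in log2 expression in full medium (vertical) against that in amino acid-deprived medium (horizontal) for each member of 3 gene lists, 1 point per gene. The dashed line marks equal differences and the grey lines mark 0. Amino acid response genes have medians of -0.43 in full and 0.37 in deprived medium, whereas sterol synthesis (-0.38 and -0.62) and G2 and mitosis genes (0.37 and 0.22) have the same sign in both. All 5 h arrays are included, and without control array 4 the 3 full-medium medians are -0.31, -0.54 and 0.25.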

How the data were processed

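Values are the authors' deposited log2 expression levels, made from array intensities with RMA, which the submitters' processing notes name together with limma; the software versions and genome build are not given in the sources used here. RNA (250 ng per sample, per the labels' protocols) was labelled for Affymetrix whole-transcript arrays. Of 35556 rows, 21789 had a single gene symbol in the platform annotation. For a gene with more than 1 row, the brightest row on average stood for it, which left 19938 genes. Array medians were 7.02 to 7.12 over the control arrays. Precision is set by how few arrays there are. The main fit (limma 3.58.1, R 4.3.3) took the 8 control arrays as 1 to 3 h, 5 h and 16 h, contrasted 5 h with 1 to 3 h and used Benjamini-Hochberg adjustment over all genes at 0.05. The interaction used all 16 arrays.

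Same-numbered 5 h arrays of both media deviated together from their group means (correlations 0.354, 0.584, 0.467 and 0.896). Arrays of equal early time did so too (0.529, 0.278 and 0.62). Arrays of unlike number were not correlated in this way, arrays of equal early time share their hour, and array 4 enters the mean of each 5 h group. These values therefore cannot show a pairing. The replicate block assumed a pairing by number and hour, and its counts rest on that. The members of the comparison, the 37 gene lists and the rules were chosen with earlier results of these data known. Named genes were the 12 largest changes each way past the threshold with groups that did not overlap, the 6 steepest monotone changes each way from 1 to 3 h, the 8 largest each way at 16 h (both among genes above the median level), the 5 largest interactions each way, and 16 genes set in advance, not all of which are reported here. Genes named from the fit without array 4, further list members and the sterol motif were added after seeing the data. The fits were tested on simulated data with independent noise of the same spread for every gene. The simulation held no outlying array, no shared deviation of paired arrays and no trend from 1 h to 3 h. It therefore does not show how the fits behave where these are present.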

Additional observations from a re-analysis of the deposited data

Results flagged for a closer look

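Among the 4 control arrays at 5 h, 16 of the 88 named genes had a single array far from the other 3, by Dixon's criterion for outliers. Chance flags about 1 gene in 20 where genes are picked without regard to these arrays. Some named genes came from the fit without array 4 or were added after seeing the data, so the 16 cannot be set against that rate. In 15 of the 16 the array was array 4, and over all 19938 genes it was array 4 in 1808 of 2093 genes so marked (10.5% of genes). Array 4 was the highest for Egr1 (9.11), Vcam1 (10.04), Plxdc2 (9.47), Hmgcs1 (10.92), Tcf7l1 (10.27), Aspm (11.10), Pola1 (9.53), Cdk1 (12.14) and Top2a (12.10). It was the lowest for Rgs16 (7.52), Aspa (6.85), Il1rn (8.88), Srf (9.84), Atxn7l1 (9.97) and Mt2 (13.18). For Ccar1 the array was 5 h array 2, at 11.14 against 11.04 on the other arrays, a gap of little size.

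The 5 h minus early difference differed between full and deprived medium, by the interaction test in limma, for 7 named genes: Cth (-1.75), Gpt2 (-1.59), Ciart (-1.53), Trib3 (-1.43), Mei4 (-1.31), Tgfb1i1 (0.90) and Chst12 (0.98), each in log2. All 7 were named because this test called them, so their call here was fixed by the rule. Trib3 was also among the genes set in advance.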

How the results depend on the processing

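The 5 h comparison called 3 genes, all lower at 5 h. With centring on array medians or only genes above the median level it called 1 gene, also lower. With quantile normalization again it called 1 gene that was higher at 5 h, and so not among the 3. It called 0 with a mean for each time, 23 with log2 of hours, 113 with the replicate block, 141 with all 16 arrays, 509 with all 16 arrays but both numbered 4 and 3172 with array weights. Leaving out an array gave 0 to 162, and the 162 came without 5 h array 4. List members called numbered 1 of 693, against 0.015% of all genes. They numbered 0 with quantile normalization or a mean for each time, 14 with log2 of hours, 22 with the replicate block and 24 with all 16 arrays. They numbered 75 with all 16 but both numbered 4 and 264 with array weights, where all genes called numbered 509 and 3172. With an array left out it was 0 to 30, and the 30 came without 5 h array 4, where 0.813% of all genes were called. The interaction called 26 genes, 4 with a mean for each time, 599 with the replicate block, 102 without both arrays numbered 4, 920 with array weights, and 1 to 44 with an array left out.

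Genes whose early and 5 h arrays did not overlap numbered 1970, and 2309 to 4172 with an array left out. The 16 h count of 40 was 324 at 1.5-fold and 34 to 75 with a 5 h array left out. The count of 53 from 1 to 3 h was 674 at 1.5-fold.

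Signs turned for 6 genes, none of which passed the test where its sign turned. With an array left out, Fos ranged from -0.21 to 0.11, Dbp from -0.30 to 0.072, Hmgcs1 from -0.72 to 0.12, Ccne2 from -0.15 to 0.18, Mt1 from -0.13 to 0.035 and Mt2 from -0.044 to 0.091. Mt1 was 0.019 with log2 of hours and 0.035 with all 16 arrays but both numbered 4, and Mt2 was 0.015 with quantile normalization, 0.049 with array weights and 0.091 with all 16 but both numbered 4. The cause of these shifts was not tested. The settings that drop both arrays numbered 4, and the count of genes that do not overlap, were chosen after seeing the data.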
